A study of Mus musculus with 5 samples.

Results

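Zfp genes encode zinc finger proteins, most of which carry tandem C2H2 fingers, short folds in which 2 cysteines and 2 histidines hold a zinc ion. The genes described here carry a symbol of Zfp followed by a number, are protein-coding in Gencode, and were selected on their level, a mean of at least 5 CPM (footprint counts per 1e6 reads of a library) over the 5 ribosome profiling libraries on their most abundant protein-coding transcript. By this rule, from which Zfp42 and Zfp598 were left out, 149 of 392 Zfp genes were members, among 21837 protein-coding genes in all and 8288 that reached the same level whatever their symbol. Of the others, 172 had a mean from 1 to under 5 CPM and 71 a mean under 1 CPM, and each was counted in at least one library. The level that chose the members is given as a description, without a test. Since it averages both methods, members near the limit can owe their place to the method in which they are higher.

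Footprints were measured in cultured mouse embryonic stem cells (mESCs), which are pluripotent, were kept with the cytokine LIF on gelatin and carry the treatment label untreated in all 5 libraries. Cycloheximide, which arrests elongating ribosomes, was given to the cells before lysis, RNA outside ribosomes was removed with RNase I (1.3 U, 45 min), and fragments of 25 to 35 nt were sequenced. In standard RIBO-seq (3 libraries, labelled biological triplicates) ribosomes were pelleted through sucrose. In AHARIBO RIBO-seq (2 libraries, labelled biological duplicates) L-azidohomoalanine (AHA), an analogue that takes the place of methionine in growing peptides, was linked to biotin, and ribosomes were pulled down by their nascent chains on beads. AHA labelling is preceded by methionine depletion, which can itself alter cells. Standard RIBO-seq is described as made on the input of the pulldown, which would make the depletion and labelling common to both methods, while both carry the treatment label untreated. The AHA dose for these libraries is not restated in the sources used here. The methods differ in the ribosome isolation as a whole, so pulldown and sucrose pelleting cannot be told apart.

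The libraries held 6403651 to 9110668 reads in standard RIBO-seq and 9972892 to 11150527 in AHARIBO RIBO-seq after removal of duplicates. All 8 embryonic stem cell markers were measured, at a summed level of 1267 to 1330 CPM in standard and 1111 to 1229 CPM in AHARIBO RIBO-seq, with Sox2 and Utf1 lower in the latter. Markers of fibroblasts or feeder cells summed to 5.63 to 6.39 CPM and 5.77 to 5.89 CPM, those of primitive endoderm to at most 3.97 CPM, and those of trophoblast to 1.57 to 2.06 CPM, most of it from Eomes, with Cdx2 at or under 0.317 CPM. The neuronal list summed to 39.4 to 43.8 CPM, of which Tubb3 made up 31.7 to 36.8 CPM, and Rbfox3 stayed at or under 1.11 CPM.

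C2H2 fingers are read as DNA-binding units, in which a few residues of each finger contact successive bases, so that an array of fingers recognises a long site. The largest mouse class joins the array to a KRAB domain, which recruits the corepressor Trim28 and, through it, the histone methyltransferase Setdb1 and heterochromatin proteins. KRAB zinc finger proteins silence retroelements and protect imprinted regions in early embryos and embryonic stem cells, and their genes lie in clusters that grew by duplication. Other Zfp genes encode unrelated proteins that share only a zinc-binding fold, such as the CCCH proteins that bind AU-rich mRNA.

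The sequences below show how alike some members are at the scale of a footprint. Each line is the coding stretch of a single C2H2 finger and its linker, 84 bases, 5′ to 3′, with the codons of the zinc-binding cysteines and histidines in capitals. The stretch of Zfp991 is its first finger of the canonical spacing followed by a TGEKP-type linker, and for each of the others the finger with most bases identical to it is shown.
Zfp991: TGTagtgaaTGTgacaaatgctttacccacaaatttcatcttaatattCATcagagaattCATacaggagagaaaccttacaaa
Zfp992: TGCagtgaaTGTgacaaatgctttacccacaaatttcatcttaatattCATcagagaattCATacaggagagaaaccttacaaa
Zfp987: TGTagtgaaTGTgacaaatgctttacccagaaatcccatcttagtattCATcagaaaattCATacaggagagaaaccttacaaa
Zfp990: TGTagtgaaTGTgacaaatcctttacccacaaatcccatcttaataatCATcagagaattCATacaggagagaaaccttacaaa
Zfp955b: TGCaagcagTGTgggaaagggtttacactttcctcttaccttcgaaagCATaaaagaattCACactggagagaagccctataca
Zfp955a: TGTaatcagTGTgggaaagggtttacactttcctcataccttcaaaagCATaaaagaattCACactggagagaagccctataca
Zfp229: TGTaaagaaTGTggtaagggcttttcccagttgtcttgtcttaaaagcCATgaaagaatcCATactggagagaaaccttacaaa
Zfp652: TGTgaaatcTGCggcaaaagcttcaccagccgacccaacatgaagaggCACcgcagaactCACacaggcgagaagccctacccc
Zfp296: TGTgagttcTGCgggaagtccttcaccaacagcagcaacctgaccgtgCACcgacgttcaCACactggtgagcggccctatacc
Zfp771: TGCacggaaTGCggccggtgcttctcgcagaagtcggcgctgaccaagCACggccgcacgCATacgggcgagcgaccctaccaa
These stretches lie, in GRCm38, at chr4:147178891-147178974, forward strand (Zfp991), chr4:146466547-146466630, forward strand (Zfp992), chr4:146125815-146125898, forward strand (Zfp987) and chr4:145537409-145537492, forward strand (Zfp990) in a cluster on chromosome 4. The others are at chr17:33303020-33303103, forward strand (Zfp955b), chr17:33241612-33241695, reverse strand (Zfp955a), chr17:21746315-21746398, forward strand (Zfp229), chr11:95763556-95763639, forward strand (Zfp652), chr7:19580305-19580388, forward strand (Zfp296) and chr7:127253940-127254023, forward strand (Zfp771). Each lies within 1 coding exon. Zfp992 differed from Zfp991 at 1 base, Zfp990 at 4 and Zfp987 at 5, and Zfp955a and Zfp955b differed from each other at 4. Zfp229, Zfp652, Zfp771 and Zfp296 shared 63, 49, 47 and 41 bases with Zfp991. The stretches also differed in base composition, from 32.1% G and C in Zfp991 to 38.1% in Zfp229, 57.1% in Zfp652, 58.3% in Zfp296 and 66.7% in Zfp771. The first 8 lines are from members that were higher in AHARIBO RIBO-seq, and Zfp296 and Zfp771 were lower.

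The members ranged widely in level. Per kb of transcript, which makes genes of different length comparable but counts untranslated ends as length, the highest was Zfp57, the KRAB protein that keeps imprinted regions methylated, with a mean of 67.6 CPM per kb. Its footprints amounted to 123, 113 and 125 CPM in standard RIBO-seq and 115 and 114 CPM in AHARIBO RIBO-seq, and the groups overlapped. Zfp428 (23.8 CPM per kb), Zfp207 (23.5), Zfp986 (21.2), Zfp296 (20.7) and Zfp568 (19.9) came next, and Zfp978 (18.9), Zfp622 (17.6), Zfp36l1 (15.6) and Zfp989 (14.0) closed the first 10. The median member had 11.5 CPM, against 17.6 CPM for the genes of the same rule that are not members. Just inside the limit of 5 CPM were Zfp319 (5.16 CPM), Zfp111 (5.03) and Zfp945 (5.02), and just outside were Zfp62 (4.80), Zfp35 (4.74) and Zfp958 (4.74). Duplicate removal had taken 14.5% to 18.0% of the members' reads per library, against 41.5% to 44.3% for the genes of the same rule together.

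AHARIBO RIBO-seq was then compared with standard RIBO-seq. More members were higher than lower after the pulldown, and the differences were small. With edgeR's quasi-likelihood test, 26 of the 149 members (17.4%) were higher at an adjusted p under 0.05, against 2.27% of the 66972 transcripts tested and 3.34% of the 8288 genes of the same rule. Lower were 3 members (2.01%), against 2.24% of all transcripts and 3.69% of the genes of the same rule. The 26 rose by 1.25- to 1.80-fold. All 149 had passed the filter of 1 CPM in at least one library.

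The median log2 fold change of the members, AHARIBO over standard RIBO-seq, was 0.17, a 1.12-fold difference, and 105 of 149 values were above 0. The median was 0.00 over all transcripts tested and -0.01 over the genes of the same rule. The 2 AHARIBO libraries lay above all 3 standard libraries in 67 members (45.0%) and below them in 16 (10.7%), against 18.9% and 20.3% of the genes of the same rule. Among the reads of those genes, the members held 1.00%, 0.975% and 0.945% in standard RIBO-seq and 1.15% and 1.06% in AHARIBO RIBO-seq. The count of calls rested on AHARIBO replicate 1, without which 3 members were higher and 0 lower with a median of 0.13. That refit has a single AHARIBO library, which is assumed to vary like the standard ones. Over all transcripts the calls also dropped then, from 1520 to 355 higher and from 1501 to 155 lower.

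**Figure D1:**
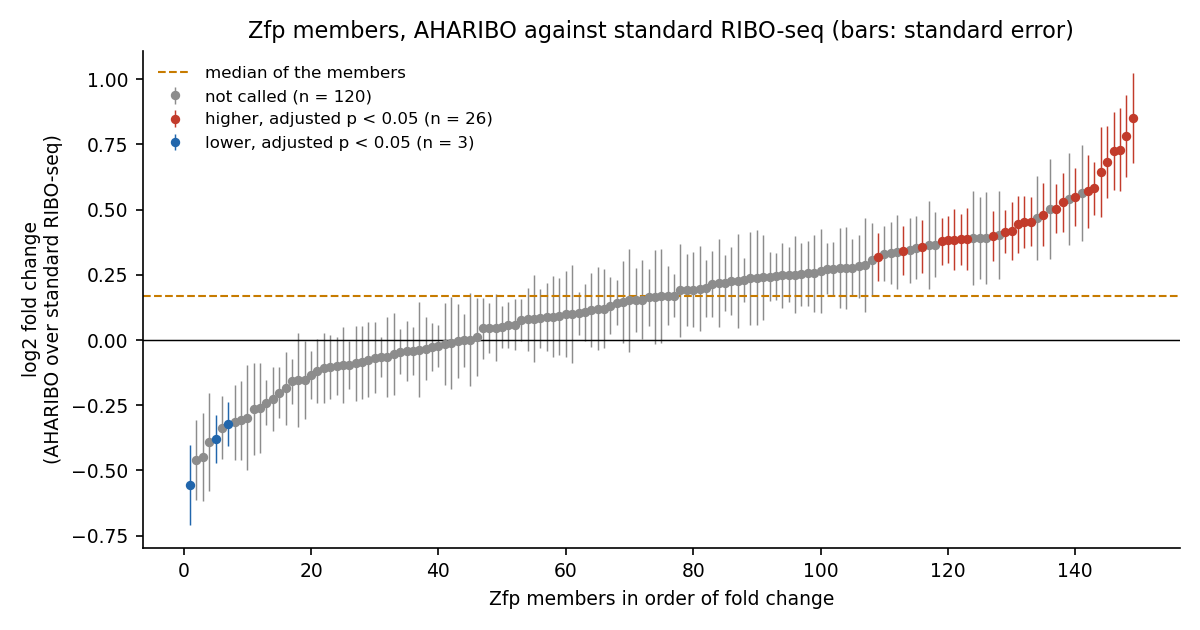
Log2 fold change (y axis, AHARIBO over standard RIBO-seq) of the 149 Zfp members in ascending order (x axis), with approximate standard errors as bars and the members' median of 0.17 as a dashed line. The 26 members higher at an adjusted p under 0.05 are in red and the 3 lower ones in blue.

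How many members passed depended on the test. DESeq2 called 3 members higher and 0 lower, against 0.771% and 0.666% of the transcripts to which it gave an adjusted p. It gave an adjusted p to 71 members, and none to 7 of the 26. The 3 were Zfp991, Zfp990 and Zfp106, which were also among the 26. With duplicate reads kept, edgeR called 17 higher and 1 lower, against 1.92% and 1.51% of all transcripts tested, and at a log2 fold change past 1.5 with an adjusted p of 0.01 or less no member passed in either direction.

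Of the 10 largest rises, 7 were in genes with KRAB-like letters. Zfp955b and Zfp955a, copies near each other on chromosome 17 that each encode 545 residues with 10 fingers, were both among the 3 largest. Zfp955b had 3.81, 5.08 and 4.92 CPM in standard RIBO-seq and 8.57 and 7.89 CPM in AHARIBO RIBO-seq, a log2 fold change of 0.85 (SE 0.17, adjusted p = 0.00157). Its standard mean was 4.60 CPM, under the limit of 5 CPM, so it was a member only through its AHARIBO libraries. Zfp955a had 5.27, 5.96 and 5.71 CPM against 10.1 and 8.59 CPM (log2 fold change 0.73, SE 0.16, adjusted p = 0.00343). Both AHARIBO libraries were above all standard libraries for each gene. The copies shared 72.0% and 70.2% of their 30-nt coding windows with each other, and how reads matching both were counted is not stated in the methods, so they may not be independent measurements. Zfp229, a KRAB-type gene with 16 fingers on the same chromosome, shared only 4.17% of its windows with any other gene. It had 6.16, 7.84 and 6.82 CPM against 12.7 and 10.2 CPM (log2 fold change 0.72, SE 0.15, adjusted p = 0.00179), with no overlap. Zfp345, a KRAB-type gene on chromosome 2 that shared 59.5% of its windows with other genes, had 9.63, 8.28 and 8.88 CPM against 15.3 and 11.0 CPM (log2 fold change 0.57, SE 0.14, adjusted p = 0.0107). Zfp960 and Zfp97, also on chromosome 17 and alike in most of their windows, rose by 0.48 and 0.38 on the log2 scale. Zfp960 had 12, 12.3 and 11.1 CPM against 15.5 and 17.7 CPM.

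Among rises outside the KRAB type, Zfp652, a transcriptional repressor with 7 fingers, had 8.63, 7.40 and 4.44 CPM in standard RIBO-seq and 13.5 and 10.7 CPM in AHARIBO RIBO-seq (log2 fold change 0.78, SE 0.16, adjusted p = 0.00151). Its standard libraries spread widely, and the AHARIBO libraries still lay above them. Zfp704, with a single finger match in 566 residues, had 8.85, 8.17 and 6.98 CPM against 13.3 and 12.7 CPM (log2 fold change 0.68, SE 0.14, adjusted p = 0.00138). It was the only called member whose call held in every refit that gave it an adjusted p. Zfp280d had 5.94, 7.17 and 4.60 CPM against 11.4 and 7.29 CPM (log2 fold change 0.64, SE 0.17, adjusted p = 0.0202), and its lower AHARIBO library was barely above the highest standard library. The most abundant of the 26 was Zfp106, a large RNA-binding protein known for its need in motor neurons and muscle. It had 63.3, 70.2 and 60.4 CPM against 93.5 and 79.3 CPM (log2 fold change 0.42, SE 0.08, adjusted p = 0.0015). The rest of the rises outside the KRAB type were Zfp518a (0.45), Zfp740 (0.44), Zfp292 (0.40) and Zfp654 (0.39). In Zfp518a, which shared 0% of its windows with other genes, standard RIBO-seq gave 31.5, 29 and 26 CPM and AHARIBO RIBO-seq 42.9 and 36.5 CPM, without overlap.

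The 3 members that fell encode different kinds of protein. Zfp296, a C2H2 factor found in embryonic stem cells and used in reprogramming, had 37.0, 34.0 and 33.8 CPM in standard RIBO-seq and 26.2 and 27.7 CPM in AHARIBO RIBO-seq (log2 fold change -0.38, SE 0.09, adjusted p = 0.00881). Zfp36l1, a CCCH protein that binds AU-rich mRNA and promotes its decay, had 51.4, 51.3 and 49.7 CPM against 39.4 and 42.1 CPM (log2 fold change -0.32, SE 0.09, adjusted p = 0.018). Zfp771, with 8 fingers, had 11.8, 9.27 and 9.20 CPM against 6.30 and 7.59 CPM (log2 fold change -0.56, SE 0.15, adjusted p = 0.0251). In each the AHARIBO libraries lay below all standard libraries. Their coding sequences were rich in G and C, with 60.5% in Zfp296, 62.8% in Zfp36l1 and 69.5% in Zfp771. Lower than Zfp296 and Zfp36l1, but without passing, were Zfp511 at -0.46 (adjusted p = 0.0708), Zfp746 at -0.45 (adjusted p = 0.118) and Zfp282 at -0.39 (adjusted p = 0.25).

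**Figure D2:**
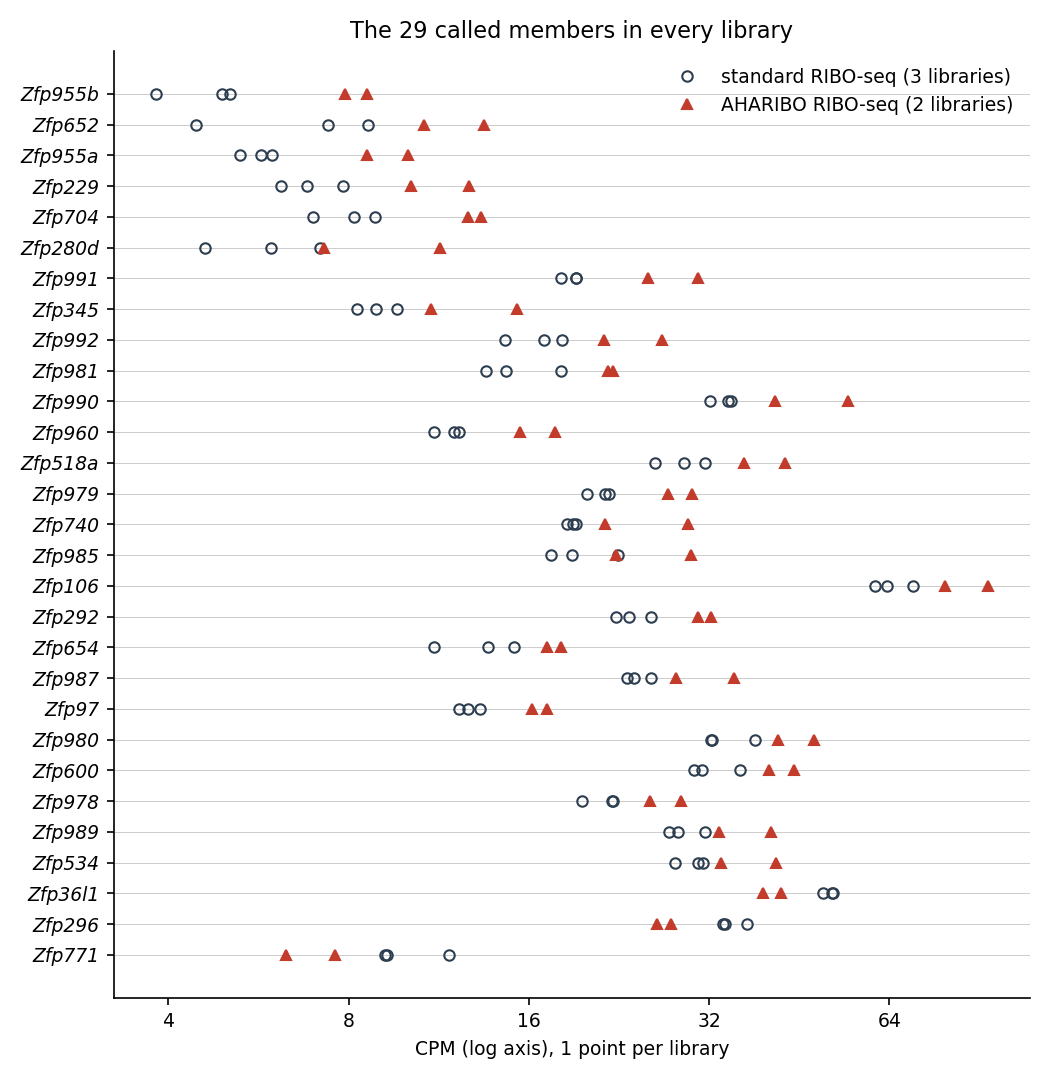
CPM of the 29 called members (x axis, log scale) in each of the 3 standard (open circles) and 2 AHARIBO (filled triangles) RIBO-seq libraries, ordered by fold change. In 28 of the 29 the methods do not overlap, the exception being Zfp985.

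The called genes had further transcripts in the table. Of 67 other transcripts that were tested, from 21 of the 29 called genes, 64 had a log2 fold change of the same sign as the member. In that direction 21 were called, several of them of Zfp280d, and 0 in the other. The opposite sign was found in transcripts of Zfp106 (-0.001 and -0.21) and Zfp652 (-0.08). No other tested transcript of Zfp652 was called. Transcripts of a gene overlap in sequence, so these values are not independent of the member's own.

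By sequence, 61 of the 149 members carried KRAB-like letters in the first 250 residues of the translated coding sequence, 143 held at least one C2H2 finger match and 2 held CCCH matches, Zfp36l1 and Zfp36l2. The letters of the KRAB A box were searched with a loose pattern, which also matched 13 of the 8139 other genes. The members encode 76 to 2698 residues, with a median of 605 residues and 9 fingers and up to 37 fingers in Zfp142. Of the 61 KRAB-like members, 18 were higher (29.5%) and 0 lower, beside 3.34% higher among the genes of the same rule. In 57 the log2 fold change was above 0, with a median of 0.31 over the 61. A cluster on chromosome 4, described below, holds 12 of the 18. Outside it, 6 of 44 KRAB-like members were higher (13.6%) and 0 lower, with a median of 0.25. Of the 88 without KRAB-like letters, 8 were higher (9.1%) and 3 lower, with a median of 0.05. The AHARIBO libraries lay above all standard libraries in 42 of the KRAB-like members and below in 0, and in 25 and 16 of the others, where the genes of the same rule gave 18.9% and 20.3%. The classes also differed in GC content, with medians of 39.6% and 54.7%. Among members with at most 47.1% GC, 18 of 51 KRAB-like ones (35.3%) and 4 of 15 others (26.7%) were higher, with medians of 0.34 and 0.24. The difference between the classes was not tested. Members with 10 or more finger matches (68 genes) had a median log2 fold change of 0.25, those with 5 to 9 (41 genes) 0.13, and those with 1 to 4 (34 genes) 0.08. Their median GC contents were 43.5%, 50.2% and 51.7%, and with the GC-corrected offsets the medians were 0.13, 0.08 and 0.08.

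Position grouped many of the rises. On chromosome 4, 17 members lie between 145510759 and 147775833 (GRCm38), each less than 1 Mb from the next, and all 17 are KRAB-like. All 17 had a positive log2 fold change, from 0.13 to 0.58 with a median of 0.38, and 12 were higher at an adjusted p under 0.05, so this cluster holds 12 of the 26 calls. The summed level of the cluster was 427, 388 and 399.9 CPM in standard RIBO-seq and 570.5 and 479 CPM in AHARIBO RIBO-seq. Zfp991 had 19.2, 18.1 and 19.2 CPM against 30.7 and 25.3 CPM (log2 fold change 0.58, SE 0.10, adjusted p = 0.000225). Its near copy Zfp992 had 18.1, 14.6 and 17 CPM against 26.7 and 21.4 CPM (log2 fold change 0.55, SE 0.11, adjusted p = 0.00169), and Zfp981 had 14.7, 13.6 and 18.1 CPM against 22.1 and 21.7 CPM (log2 fold change 0.53, SE 0.11, adjusted p = 0.00271). None of these groups overlapped. At the other end, Zfp982 had 19.2, 16.3 and 21.3 CPM against 20 and 21 CPM, within the spread of the standard libraries (adjusted p = 0.563).

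Short reads separate the 17 genes poorly. As the printed stretches show, a footprint of about 30 nt can fall where several copies are identical, and between 31.2% (Zfp982) and 100% (Zfp987) of their coding windows of 30 nt also occur in transcripts of other genes, with a median of 86.5%. The 12 calls are therefore not independent where reads matching several copies were counted, which the methods do not settle. Without the cluster, 14 of 132 members (10.6%) were higher and 3 lower, with a median log2 fold change of 0.13. Over the whole list, 54 members shared at least 10% of their windows with other genes, among them 17 of the 26 that rose. The 95 members that shared less had 9 higher and 2 lower, with a median of 0.09. Higher were thus 9.47% of the members with little shared sequence, beside 3.34% of the genes of the same rule.

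**Figure D3:**
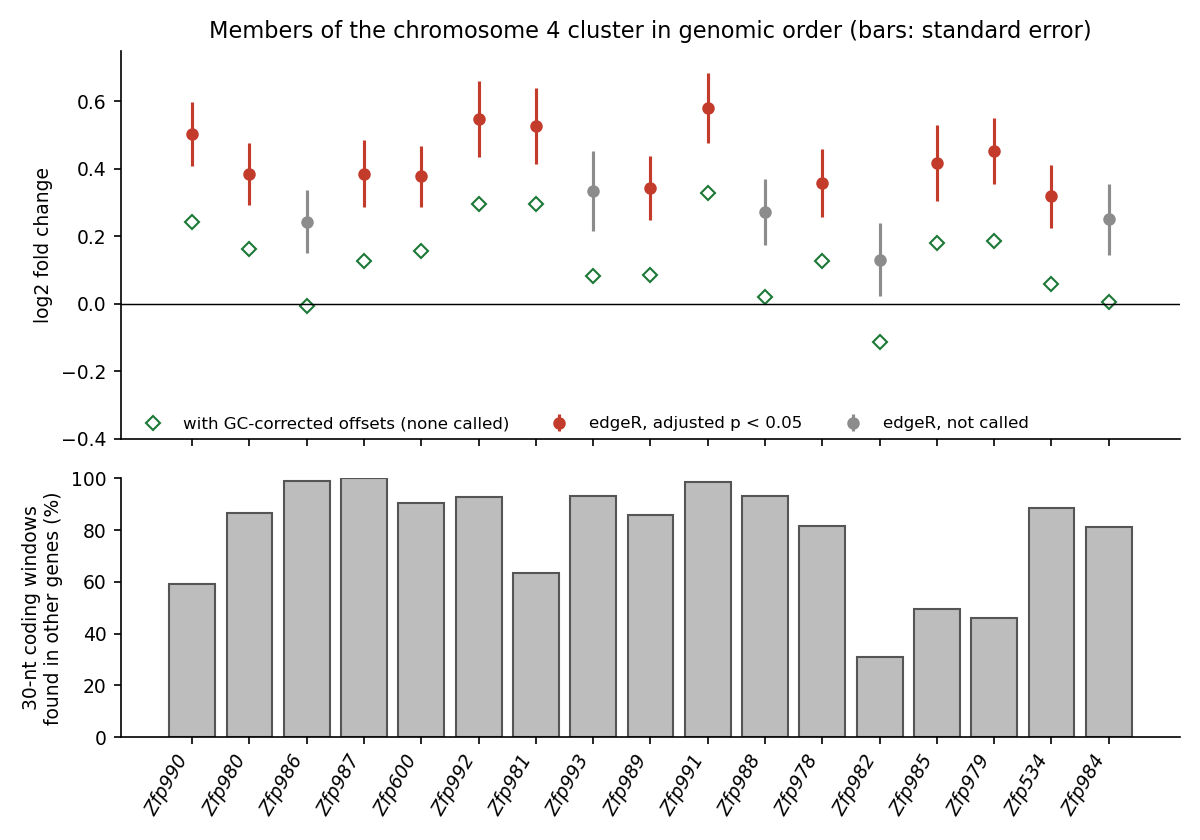
Upper panel, log2 fold change (AHARIBO over standard RIBO-seq) of the 17 members of the chromosome 4 cluster in genomic order, with standard errors, in red where the adjusted p was under 0.05, and as open diamonds the values after correction for GC content. Lower panel, percent of each coding sequence's 30-nt windows that also occur in transcripts of other genes, from 31.2% to 100%.

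Other clusters had medians on both sides of 0. On chromosome 17, Zfp871, Zfp955a, Zfp955b and Zfp414 (32765496 to 33631779) had a median of 0.50, with both copies of Zfp955 higher. Zfp414 went the other way, at -0.34, with its AHARIBO libraries below all standard ones. On chromosome 7, Zfp141, Zfp977, Zfp976, Zfp975, Zfp936, Zfp715 and Zfp819 (42473386 to 43618285) all had positive values, with a median of 0.25, and Zfp60, Zfp626, Zfp59, Zfp607a, Zfp780b and Zfp850 (27731389 to 28014115) had a median of 0.21, but no member of either was called. Another run on chromosome 7, Zfp553, Zfp771, Zfp747, Zfp668 and Zfp646 (127233061 to 127885996), had a median of -0.15 with Zfp771 lower. On chromosome 6, Zfp282, Zfp212, Zfp777 and Zfp746 (47877204 to 48086593) all had negative values, with a median of -0.25 and no call. The clusters with negative medians were those with G and C-rich coding sequences, at medians of 59.7% and 59.96%, against 38.1% and 43.6% in the former and 36.02% on chromosome 4. By chromosome, 13 of 20 members on chromosome 4 and 5 of 13 on chromosome 17 were higher, beside 3.34% of the genes of the same rule, and 0 of the 37 on chromosome 7 were higher and 2 lower, beside 3.34% and 3.69%. Differences between chromosomes were not tested.

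Base composition moved with the fold change throughout. Over the 149 members, the log2 fold change and the GC content of the coding sequence had a Spearman's rho of -0.76 and a Pearson's r of -0.72. Over the 8139 other genes of the same rule, rho was -0.54 and r -0.49. These coefficients run across genes measured in the same 5 libraries and carry no p-value. Within the KRAB-like members rho was -0.56 (n = 61), within the others -0.67 (n = 88), and among members that shared under 10% of their windows -0.71 (n = 95).

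The members were then set beside other genes in 5 classes of GC content that each hold an equal share of the 8288 genes. The class poorest in G and C, up to 47.1%, held 66 of the 149 members, 51 of them KRAB-like. GC content still differed within it, with a median of 40.1% in the members and 44.4% in the other genes. In it 22 members (33.3%) were higher and 0 lower, against 10.2% higher and 1.07% lower among 1592 other genes. The median log2 fold change was 0.34 in the members and 0.16 in the other genes. The chromosome 4 cluster, all 17 of whose members are in this class, holds 12 of the 22. In the class richest in G and C, from 58.1%, 1 of 31 members was higher and 3 were lower (9.68%), against 0.86% and 13.3% of 1627 other genes, with medians of -0.10 and -0.16. Below 40% GC, 17 of 33 members were higher, 12 of them in the chromosome 4 cluster, and 0 lower. Of 92 other genes in that range 25 were higher and 14 lower.

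**Figure D4:**
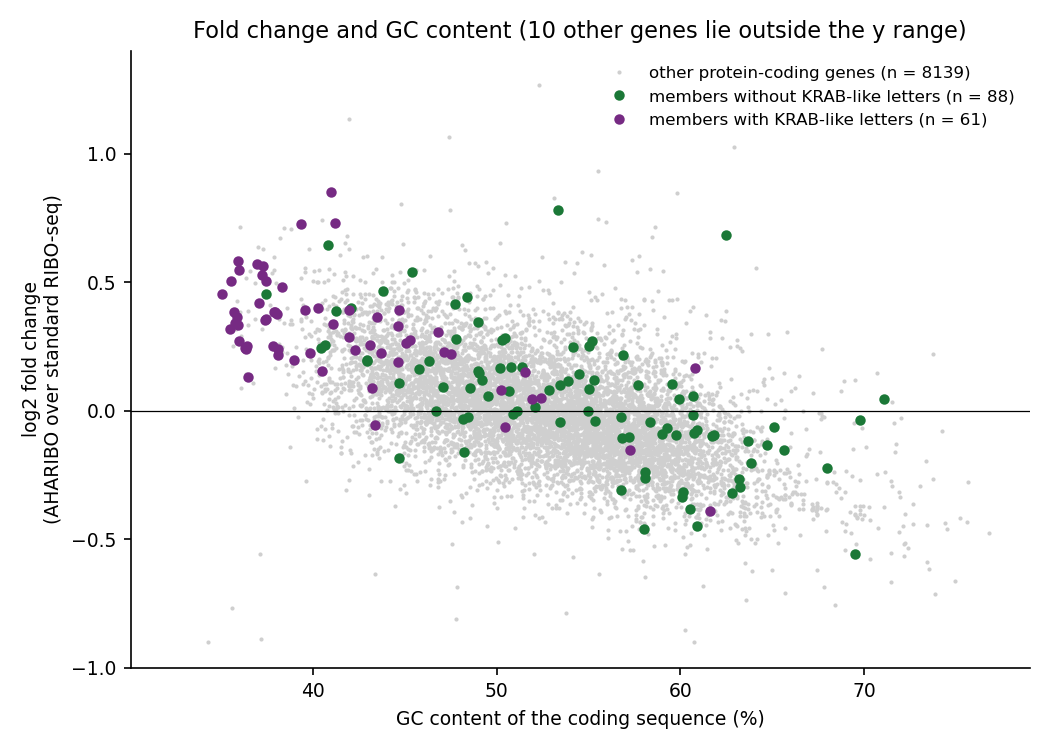
Log2 fold change (y axis, AHARIBO over standard RIBO-seq) against the GC content of the coding sequence (x axis, percent) for 8139 other genes in grey, members with KRAB-like letters in purple (n = 61) and the other members in green (n = 88). Values fall with GC content in members (rho -0.76) and in other genes (rho -0.54).

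**Figure D5:**
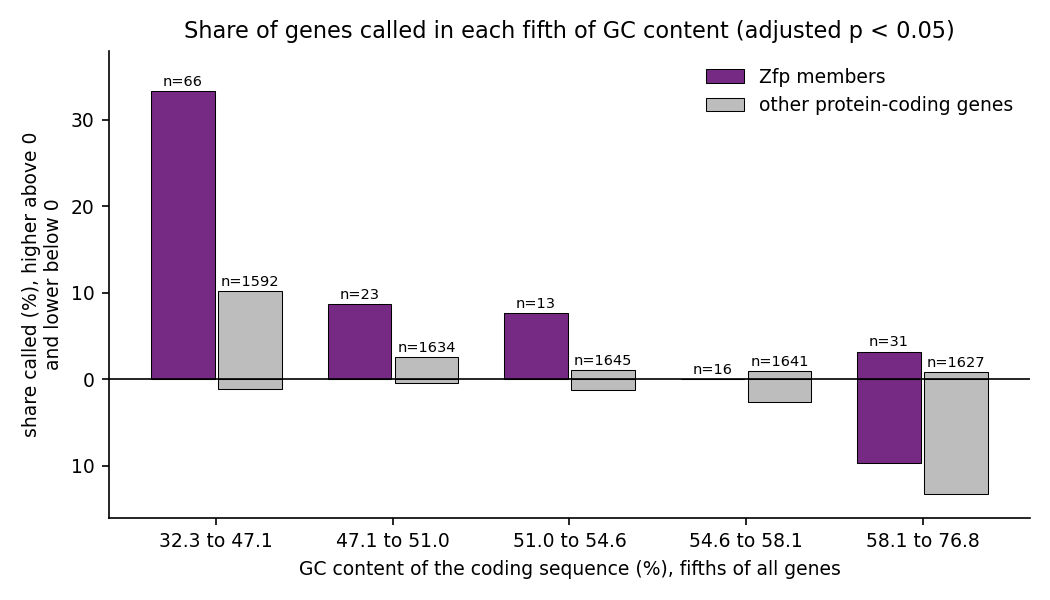
Share of genes called higher (upward bars) or lower (downward bars) at an adjusted p under 0.05 in 5 classes of GC content, for the Zfp members and for other genes of the same rule, with the number of genes above each bar. In the class poorest in G and C 33.3% of the members and 10.2% of the other genes are higher. The chromosome 4 cluster lies in this class and holds 12 of its 22 higher members.

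A fit whose offsets took out the trend of each library with GC content, chosen after the data were seen, called 7 members higher and 0 lower, against 1.08% and 0.827% of all transcripts. The 7, all among the 26, were Zfp704, Zfp652, Zfp106, Zfp955b, Zfp740, Zfp229 and Zfp955a. In this fit the members' median was 0.10, against 0.01 over the genes of the same rule and 0.13 over 38 Zbtb, Zscan and Zkscan genes. KRAB-like members had a median of 0.13 with 3 higher, and the other members a median of 0.08 with 4 higher. Of the 12 calls of the chromosome 4 cluster 0 remained, and the median there was 0.13, with Zfp982 and Zfp986 turning negative (-0.11 and -0.01). The 3 members that were lower kept their sign at -0.27 (Zfp771), -0.24 (Zfp296) and -0.14 (Zfp36l1) and did not pass. Zfp704, with 62.5% GC and a rise, had the largest value of this fit, 0.86. The trend was fitted on the same libraries, and the part of base composition in the differences was not tested beyond this fit. Length was not corrected for. In this fit the log2 fold change had a rho with coding length of 0.22 over the members and 0.43 over the other genes. The median protein had 605 residues in the members and 456 in the other genes, and the part of length was not tested.

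Since AHA enters peptides at methionine codons, the methionines of the members were counted. They hold 1 to 64 methionines, a median of 8, or 1.42 per 100 residues against 2.18 in the other genes of the same rule. The log2 fold change had a Spearman's rho of 0.03 with their number, -0.17 with their density and -0.14 with the position of the second methionine (n = 148). With the number of methionines, rho was 0.39 within the 88 members without KRAB-like letters, -0.16 within the 61 with them and 0.39 over the 8139 other genes, all in the same libraries. With the length of the coding sequence rho was 0.37 in the 88 members and 0.40 over the other genes, for which the density of methionines gave 0.01. In 15 members the second methionine lies past residue 100, and of these 3 were higher and 0 lower, with a median of 0.10, beside 17.4% higher over all members and 3.34% over the genes of the same rule. Zfp146, an array of 10 fingers in 292 residues, has only the initiating methionine, and had 7.39, 8.39 and 8.73 CPM in standard RIBO-seq and 9.97 and 7.99 CPM in AHARIBO RIBO-seq (log2 fold change 0.16, adjusted p = 0.629). In Zfp428 the second methionine is residue 169 of 176, and its footprints amounted to 31.4, 28 and 29.3 CPM against 24.0 and 27.7 CPM (log2 fold change -0.20, adjusted p = 0.245). Zfp422, with the second at 186 of 237, had a log2 fold change of 0.10 (adjusted p = 0.831), and its libraries overlapped. Zfp24, with the second at 206 of 368, had 0.34 (adjusted p = 0.1), and both AHARIBO libraries were above the standard ones. None of these 4 passed the test. The 3 that did among the 15 were Zfp704 (second methionine at 158 of 566, log2 fold change 0.68), Zfp292 (139 of 2698, 0.40) and Zfp654 (213 of 1112, 0.39).

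Of 9 genes listed for work in stem cells, 7 reached the level, and of these 0 were higher and 1, Zfp296, was lower, beside 3.34% and 3.69% of the genes of the same rule, with a median log2 fold change of -0.02, which turned to 0.02 in the GC-corrected fit. Zfp281, a regulator of pluripotency exit, had 36.5, 35.5 and 31.3 CPM in standard RIBO-seq and 36.7 and 35.4 CPM in AHARIBO RIBO-seq, and Zfp207, a kinetochore and splicing protein, had 69.6, 72.1 and 63.6 CPM against 69.5 and 65.6 CPM. Both pairs of groups overlapped. Zfp462, a large protein with 34 finger matches needed for heterochromatin in these cells, had 63.5, 67.7 and 60.6 CPM against 74.4 and 69.8 CPM, with no overlap but an adjusted p of 0.242. Zfp143, which binds promoters, had 0.28 (adjusted p = 0.143), Zfp217 -0.04 (adjusted p = 0.862) and Zfp706 -0.16 (adjusted p = 0.315).

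Of 7 KRAB proteins listed for imprints and retroelements, 6 reached the level, and 0 were called in either direction. Among the genes of the same rule 3.34% were higher and 3.69% lower. The median log2 fold change of the 6 was 0.16. Zfp57 had a log2 fold change of -0.07 (adjusted p = 0.717), and Zfp568, which silences a placental transcript of Igf2, had 77.3, 83.6 and 74.4 CPM against 81.1 and 81.8 CPM (adjusted p = 0.796). Zfp445, which acts beside Zfp57 at imprinted regions, had 20.9, 21.9 and 20.5 CPM against 29.8 and 23.1 CPM, above all standard libraries at an adjusted p of 0.0548. Zfp809, which silences retroviruses at the primer binding site, had 0.26 (adjusted p = 0.387), Zfp819 0.08 (adjusted p = 0.847) and Zfp932 0.24 (adjusted p = 0.454). Zfp57 and Zfp568 had coding GC contents of 50.4% and 52.4%, above most KRAB-like members, whose median was 39.6%.

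Of 11 genes listed for RNA and ribosomes, 10 reached the level, with 1 higher (Zfp106) and 1 lower (Zfp36l1), beside 3.34% and 3.69% of the genes of the same rule, and a median of 0.02. Zfp622, a factor of 60S subunit maturation, had 58.0, 49.0 and 50.9 CPM in standard RIBO-seq and 46.1 and 43.1 CPM in AHARIBO RIBO-seq, below all standard libraries at an adjusted p of 0.104. Zfp593, also a factor of the 60S subunit, had -0.12 (adjusted p = 0.657), Zfp638, a nuclear RNA-binding protein, 0.24 (adjusted p = 0.111), and Zfp36l2, the relative of Zfp36l1, 0.05 (adjusted p = 0.885). Zfp326, Zfp346, Zfp385a and Zfp830 lay between -0.09 and 0.11 with no call.

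Of 13 genes listed as chromatin or transcription cofactors, 12 reached the level and 0 were called. Among the genes of the same rule 3.34% were higher and 3.69% lower. The 12 had a median log2 fold change of 0.15 and values from -0.13 (Zfp219) to 0.54 (Zfp148). Zfp148 had 4.59, 4.64 and 4.60 CPM against 7.09 and 6.29 CPM, with no overlap and an adjusted p of 0.0659. Its standard values were all under the limit of 5 CPM, so it was a member only through its AHARIBO libraries. The related Zfp532, Zfp592 and Zfp687, which act together as a chromatin cofactor complex, had values of 0.14, 0.25 and -0.10. Zfp609 had 0.27 (adjusted p = 0.112) and Zfp410, a regulator of the nucleosome remodelling subunit Chd4, 0.17 (adjusted p = 0.683).

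The partners of KRAB proteins were measured in the same fit. Of 20 corepressor genes listed, 19 reached 5 CPM, and 1 (5.26%) was higher and 0 lower, beside 3.34% and 3.69% of the genes of the same rule, with a median of 0.04. The one was Cbx5, the heterochromatin protein HP1 alpha, with 26.3, 25.3 and 27.4 CPM in standard RIBO-seq and 38.4 and 37.6 CPM in AHARIBO RIBO-seq (log2 fold change 0.53, SE 0.09, adjusted p = 8.61e-05). Trim28 had 633, 623 and 638 CPM against 517 and 587 CPM (log2 fold change -0.19, adjusted p = 0.138), and Setdb1 had 45.5, 43.0 and 43.0 CPM against 46.8 and 51.6 CPM (log2 fold change 0.16, adjusted p = 0.295).

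Other C2H2 families were set beside the members by the same level rule, while the 13 other genes with KRAB-like letters were not summarised. The 38 Zbtb, Zscan and Zkscan genes join C2H2 fingers to a BTB or SCAN domain. Of these 0 were called, beside 3.34% higher and 3.69% lower among the genes of the same rule. Their median log2 fold change was 0.13 and their median coding GC content 52.2%. The AHARIBO libraries lay above all standard libraries in 26.3% of them and below in 10.5%, beside 18.9% and 20.3%. Of 15 Klf and Sp genes, factors with a short finger array, 0 were higher and 4 lower, beside 3.69% of the genes of the same rule, with a median of -0.10 at 56.8% GC. With the GC-corrected offsets 0 of the 15 were lower and 1 was higher, with a median of -0.03, and DESeq2 called 1 lower. The members had a median of 0.17 at 48.4% GC, and the differences between families were not tested.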

How the data were processed

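The authors trimmed reads with Trimmomatic (version 0.36), removed rRNA and tRNA reads, aligned the rest to Gencode M17 transcripts (GRCm38.p6) with STAR and removed antisense and duplicate reads. The deposited values are raw counts per transcript, with duplicates removed (used here) and kept (an alternative), and the transcript length. How reads matching several transcripts were counted is not given in the sources used here, and the reads carry no molecular identifiers. Samples were grouped by their labels.

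CPM values and tests were computed here with edgeR 4.0.16 (TMM, quasi-likelihood test, R 4.3.3) over 66972 transcripts that reached 1 CPM in some library, with Benjamini-Hochberg adjustment over all of them. Standard errors, taken from fold change and F, are approximate. As another test, DESeq2 1.42.0 was run. On simulated data for this comparison (66972 transcripts, 200 changed), edgeR recovered 99% of 2-fold and 100% of 4-fold changes with 12 unchanged transcripts called. DESeq2 recovered 82% and 100% with 0. The 26 higher members rose by 1.25- to 1.80-fold, and the simulation held no change that small. It also held no trend with GC content and no reads shared between copies, so it cannot show how such changes are recovered. Names, coordinates and coding sequences came from Gencode M21 (GRCm38), which held 99.8% of the transcripts, 98.5% of them at the same length. Coding sequences were translated and searched for C2H2 (2 to 4, 12 and 3 to 5 residues between the ligands) and KRAB-like letters, and cut into windows of 30 nt. Clusters are 4 or more members with starts under 1 Mb apart. The GC-corrected fit used lowess offsets (span 0.3, pseudocount 0.5 CPM) on the coding GC content.

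The labels call the samples biological replicates without naming separate cultures, so p-values may measure only technical spread. The members, the gene lists and the tests were chosen with earlier results of these data known. Named members are the 10 largest rises and all falls among those called, the 5 largest and 5 smallest fold changes, the 10 highest per kb, those beside the level limit, and the listed genes. Further members, named by cluster, sequence or methionines, were chosen after their values were seen.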

Additional observations from a re-analysis of the deposited data

How the results depend on the processing

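The 26 higher and 3 lower members, with a median log2 fold change of 0.17, became 3 and 0 with DESeq2, 17 and 1 with duplicate reads kept, and 0 and 0 at a log2 fold change past 1.5 with an adjusted p of 0.01 or less. In alternatives added after seeing the data, they became 7 and 0 with a median of 0.10 under the GC-corrected offsets, 14 higher without the chromosome 4 cluster, and 9 higher with a median of 0.089 without members sharing 10% or more of their windows. Leaving out a library gave 3 to 29 higher, 0 to 5 lower and medians of 0.13 to 0.22, with the lowest count without AHARIBO replicate 1 (3 and 0), the highest without AHARIBO replicate 2 (29 and 5), and 19 and 0 without standard replicate 1. Without either AHARIBO library the spread comes from the standard libraries alone, and the remaining one is assumed to vary like them. The causes were not tested. The medians stayed above 0 in every alternative that gave one. Library size in place of TMM (27 and 3), no filter on low counts (26 and 3), one transcript per gene (20 and 3) and a limit of 2 (29 and 4) or 10 CPM (20 and 2) left the counts within 1.5 times of these. No called member changed sign. Same-numbered libraries of the methods share only a number (correlations of their deviations of 0.0386 and -0.083), and a fit with the replicate block gave 21 higher and 3 lower with a median of 0.17. Restricting protein features to proteins matched by symbol in a reference protein table was not run.

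Of the members named by the rules above and not called, these changed sign. Members named only by cluster, sequence or methionines are left out, such as Zfp982 and Zfp977, which turned negative with the GC-corrected offsets. GC-corrected offsets gave Zfp217 0.023, Zfp219 0.080, Zfp335 0.057, Zfp346 0.057, Zfp384 0.059, Zfp385a 0.063, Zfp593 0.080, Zfp932 -0.0057 and Zfp986 -0.0053. Library size gave Zfp207 0.012, Zfp346 0.031 and Zfp384 0.0087, and duplicate reads kept gave Zfp207 0.0023, Zfp346 0.013, Zfp36l2 -0.013 and Zfp809 -0.020. The replicate block gave Zfp346 0.012 and Zfp36l2 -0.031. Leaving out a library gave ranges of -0.071 to 0.30 for Zfp111, -0.067 to 0.019 for Zfp207, -0.073 to 0.0062 for Zfp217, -0.50 to 0.0058 for Zfp319, -0.14 to 0.059 for Zfp335, -0.084 to 0.072 for Zfp346, -0.11 to 0.20 for Zfp36l2, -0.14 to 0.070 for Zfp384, -0.034 to 0.18 for Zfp819 and -0.10 to 0.0099 for Zfp91.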
